A study of Mus musculus with 10 samples.

Results

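Cells make cholesterol from acetyl-CoA through mevalonate, isoprenoids and squalene, and take it up, move it, store it or export it through a separate set of proteins. The 32 genes described here were taken by symbol from a list of these proteins: 8 enzymes from acetyl-CoA to the isoprenoid diphosphates, 11 enzymes from squalene to cholesterol, 5 genes of the SREBP control system, and 8 genes of sterol transport, efflux and storage. All 32 were among the 14300 genes of the count table. SREBP transcription factors are held in the endoplasmic reticulum with their escort SCAP by the INSIG proteins when sterol is plentiful, and are cut free to switch on synthesis and uptake genes when it is scarce. LXR receptors sense oxysterols and switch on efflux genes. The brain makes most of its own cholesterol, since plasma lipoproteins do not cross the mature blood-brain barrier, and glial cells and microglia are known sources of apolipoprotein E.

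The libraries were bulk mRNA-seq of live cells sorted from the dorsal telencephalon of E14.5 C57BL/6J embryos that carried Grem1creERT and Rosa26LSLTdTomato, 24 h after the dam received tamoxifen at E13.5. TdTomato+ cells (labelled Grem1 positive) and TdTomato− cells (labelled Grem1 negative) came from the same 5 mice, numbered 2 to 6, so that each mouse gave 1 library of each population. Both populations carried the reporter alleles and had the same tamoxifen exposure, and whether a mouse number stands for 1 embryo or several is not given in the sources used here. The reporter marks cells in which the Grem1 promoter drove the recombinase during that day, and all other live cells, of whatever type, fell into the TdTomato− gate.

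Levels are given as CPM (counts relative to the library size, scaled by the trimmed mean of M values), and differences as the log2 fold change of TdTomato+ over TdTomato− with its standard error. A gene was called at an adjusted p of 0.05 or less in edgeR's quasi-likelihood test with the mouse as a block. Each library held between 23429034 and 27286180 counts. Grem1 averaged 63.3±3.10 CPM in TdTomato+ cells and 6.11±0.731 CPM in TdTomato− cells (mean±s.d., n=5 each). Markers of postmitotic cortical neurons were higher in TdTomato+ cells for 10 of 10 genes, with summed levels of 14970 to 16710 CPM against 6060 to 7197 CPM. Radial glia and progenitor markers were lower for 10 of 10 genes (138 to 199 CPM against 1939 to 2387 CPM), as were 8 of 8 markers of GABAergic neurons (44.9 to 68.2 CPM against 1345 to 1722 CPM). Every comparison below is therefore one between neuron-rich TdTomato+ libraries and TdTomato− libraries of mixed cell types, and the part of cell composition in the differences was not tested. In such bulk samples, fewer cells of a type and less RNA per cell cannot be told apart.

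The promoters of 4 genes are shown because they belong to the enzyme with the highest level per length (Hmgcs1), to the SREBP control genes with the largest differences (Insig1 and Srebf1) and to the most reduced efflux gene (Abca1). They are RefSeq sequences of build GRCm38.p6 on the gene's own strand, cut to the bases before the first exon, and the Srebf1 window belongs to 1 of its 3 RefSeq starts. Capitals mark the sterol regulatory element TCACNCCAC to which SREBP binds, the E-box CACGTG, and the CCAAT box read in either direction (ATTGG or CCAAT).
Hmgcs1, chr13:119690101-119690350, plus strand: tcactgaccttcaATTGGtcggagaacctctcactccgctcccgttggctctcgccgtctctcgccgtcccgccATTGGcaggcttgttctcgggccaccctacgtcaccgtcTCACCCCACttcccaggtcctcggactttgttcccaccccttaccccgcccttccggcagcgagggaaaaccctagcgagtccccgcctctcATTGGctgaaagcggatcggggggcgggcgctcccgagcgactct
Insig1, chr5:28071162-28071362, plus strand: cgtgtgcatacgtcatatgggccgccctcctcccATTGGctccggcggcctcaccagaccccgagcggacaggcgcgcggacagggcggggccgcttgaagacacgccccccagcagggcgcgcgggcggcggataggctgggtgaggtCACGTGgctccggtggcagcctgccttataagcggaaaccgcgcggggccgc
Srebf1, chr11:60210472-60210721, minus strand: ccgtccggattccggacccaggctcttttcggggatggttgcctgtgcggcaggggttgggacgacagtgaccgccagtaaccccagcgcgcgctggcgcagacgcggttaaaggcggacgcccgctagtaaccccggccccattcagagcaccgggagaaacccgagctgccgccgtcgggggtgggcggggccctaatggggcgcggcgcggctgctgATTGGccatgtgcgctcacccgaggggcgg
Abca1, chr4:53159896-53160145, minus strand: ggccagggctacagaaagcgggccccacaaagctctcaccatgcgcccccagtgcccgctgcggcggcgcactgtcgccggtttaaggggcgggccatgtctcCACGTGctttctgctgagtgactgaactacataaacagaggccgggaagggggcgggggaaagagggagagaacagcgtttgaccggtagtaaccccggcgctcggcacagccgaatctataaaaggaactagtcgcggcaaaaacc
The Hmgcs1 window holds a sterol regulatory element 137 bases before the start site, between CCAAT boxes, and the Insig1 and Abca1 windows hold an E-box. RefSeq promoters were at hand for 26 of the 32 genes. Only the 250 bases before each start were searched, on both strands. In them the element TCACNCCAC occurred in 1 of 26 genes (3.8%), against 1.2% of 10560 genes of the table with a promoter. The CCAAT box occurred in 21 of 26 (80.8%, against 40.8%), the GC box GGGCGG in 21 of 26 (80.8%, against 65.2%), and the E-box in 6 of 26 (23.1%, against 9.8%). The LXR element, searched as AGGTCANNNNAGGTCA, had no exact match in any of these promoters. A letter match is a description of the sequence and does not show that a factor is bound.

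Over the whole set, 5 genes were higher in TdTomato+ cells, 17 were lower and 10 were not called. Among all genes of the table, 37.9% were called higher and 39.4% lower, so calls in this comparison were common. The lower genes made up 17 of 32 here. The median log2 fold change of the 32 genes was −0.15, beside −0.01 over all genes. Most differences were small: only Abca1 and Apoe, both lower, also passed an absolute log2 fold change of 2, a size that 9.74% of all genes passed downward and 3.2% upward. The populations did not overlap in CPM for 14 of 32 genes, against 61.6% of all genes. By role, the median was −0.30 for the mevalonate and isoprenoid enzymes (0 higher, 5 lower of 8), −0.09 for the squalene and sterol enzymes (2 higher, 4 lower of 11), −0.17 for SREBP control (1 higher, 3 lower of 5) and −0.49 for transport, efflux and storage (2 higher, 5 lower of 8). With library totals in place of the scaling, the median of all genes moved to −0.18, the calls of 3 higher genes (Scap, Npc1 and Soat1) were lost, and 23 genes in place of 17 were called lower.

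**Figure D1:**
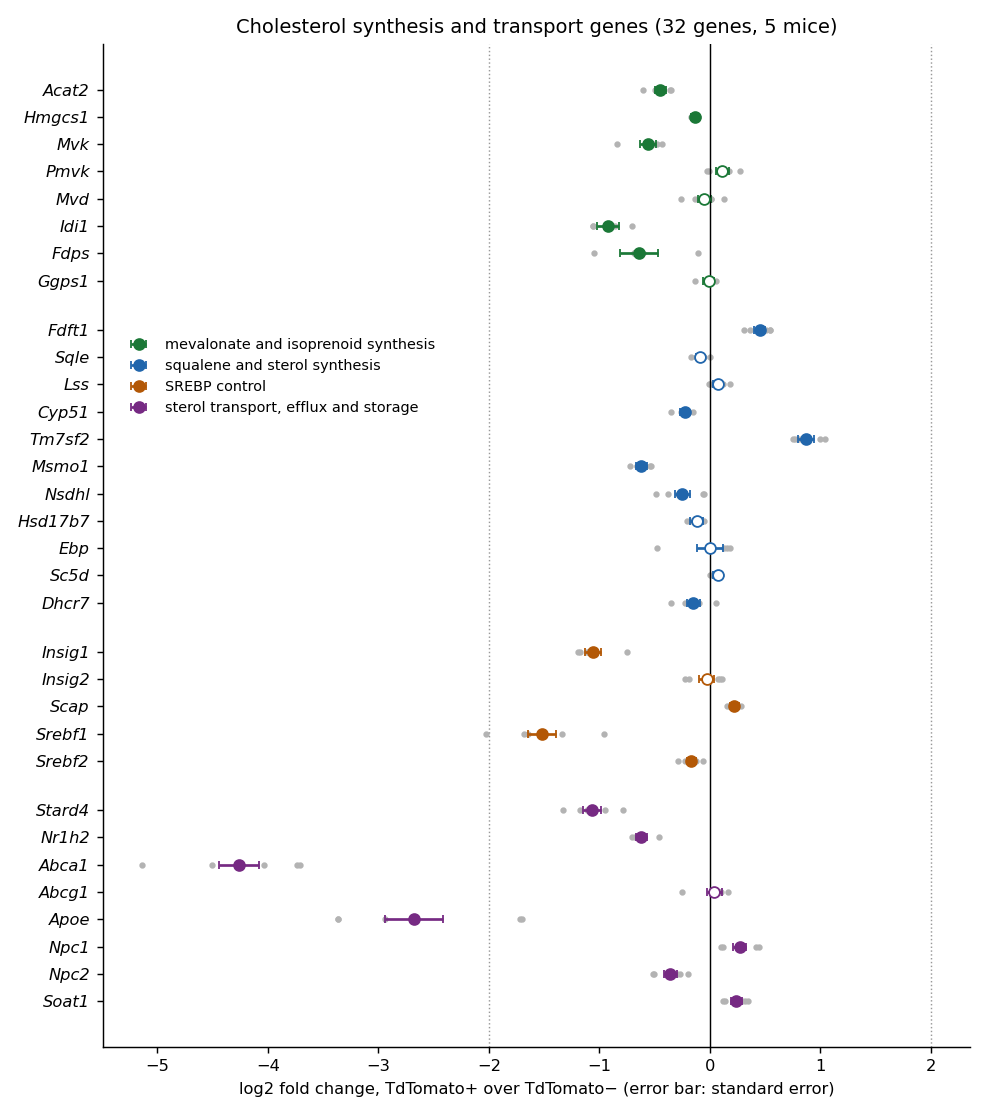
Log2 fold change of TdTomato+ over TdTomato− cells (horizontal axis) for the 32 genes, grouped and coloured by role. Large points are the edgeR estimates with standard errors, filled where the adjusted p was 0.05 or less; small grey points are the 5 mice, and dotted lines mark log2 fold changes of −2 and 2. Most genes lie within 1 unit of 0, Abca1 (−4.26) and Apoe (−2.68) lie beyond −2, and Tm7sf2 (0.87) has the highest value; under library totals Pmvk, Lss, Sc5d and Abcg1, which were not called, turn negative.

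The enzymes that build mevalonate and the isoprenoids were lower in TdTomato+ cells or not called. Idi1, the isomerase that interconverts the 5-carbon isoprenoid units, showed the largest difference. Its level in mice 2 to 6 was 4.67, 5.03, 6.53, 4.30 and 3.89 CPM in TdTomato+ cells, and 8.48, 10.5, 10.7, 8.96 and 7.32 CPM in TdTomato− cells. The highest TdTomato+ library lay below the lowest TdTomato− library, and the log2 fold change was −0.92±0.10 (adjusted p=2.4e-05).

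Mvk, mevalonate kinase, gave 18.1, 21.4, 25.4, 16.2 and 20.6 CPM in TdTomato+ cells and 26.4, 29.8, 36.3, 29.0 and 27.7 CPM in TdTomato− cells of mice 2 to 6. These did not overlap either, although mouse 4 in TdTomato+ cells came close to mouse 2 in TdTomato− cells (log2 fold change −0.56±0.07, adjusted p=5.6e-05). Acat2, the cytosolic thiolase that joins the first acetyl-CoA units, averaged 61.5±9.35 CPM against 83.8±11.3 CPM and was lower in 5 of 5 mice (−0.45±0.05, adjusted p=3.3e-05). Fdps, farnesyl diphosphate synthase, was low throughout, at 1.77 to 2.12 CPM against 2.30 to 4.21 CPM (−0.64±0.17, adjusted p=0.0064), and lost its call when mice 3 and 4 were both left out (−0.47, adjusted p=0.084). Of the 75-base stretches in Fdps transcripts 58.5% occur in other annotated genes, namely the protein-coding Gm43738 and processed pseudogenes. The share was 35.6% for Acat2, with Acat3 and Tcp1, and 26.6% for Idi1, mainly with processed pseudogenes. Only uniquely mapped reads were counted, so these levels are uncertain.

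Hmgcs1, the cytosolic HMG-CoA synthase, had the highest level per length of the 32 genes, 66.1 CPM per kb of exon in TdTomato+ cells and 72.9 in TdTomato− cells. It stood at 265, 335, 364, 284 and 271 CPM in TdTomato+ cells of mice 2 to 6 and at 289, 366, 410, 306 and 304 CPM in TdTomato− cells. The ranges overlapped widely, and mice differed more than populations did. Within each mouse the TdTomato+ library was lower by a nearly constant amount, a log2 ratio between −0.17 and −0.11. The difference (−0.14±0.03, adjusted p=0.0044) was therefore called only with mice paired, and not without the pairing (adjusted p=0.27) or without mice 3 and 4 (adjusted p=0.055). Of the 75-base stretches of Hmgcs1, 11.2% occur also in the antisense gene Gm48342, and the part of this overlap was not tested. Pmvk, phosphomevalonate kinase (0.11±0.06, adjusted p=0.11), Mvd, the mevalonate diphosphate decarboxylase (−0.05±0.06, adjusted p=0.51), and Ggps1, which makes the geranylgeranyl diphosphate used for protein prenylation (−0.01±0.05, adjusted p=0.81), were not called. Their 95% intervals reached from −0.02 to 0.24, from −0.20 to 0.10 and from −0.12 to 0.10.

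The squalene and sterol enzymes went in both directions. Fdft1, squalene synthase, makes the first intermediate committed to sterols, and was higher in TdTomato+ cells of 5 of 5 mice, at 165 to 211 CPM (median 189) against 121 to 148 CPM (median 137). The populations did not overlap (0.45±0.05, adjusted p=2.1e-05). Tm7sf2, a sterol C14-reductase, showed the largest rise. It gave 25.8, 25.5, 30.7, 20.3 and 24.2 CPM in TdTomato+ cells of mice 2 to 6 and 15.1, 14.6, 15.4, 12.1 and 11.7 CPM in TdTomato− cells, a 1.83-fold difference with no overlap (0.87±0.07, adjusted p=2.6e-06).

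Both rises concern genes that share exonic sequence with a neighbour. Of the 75-base stretches of Fdft1, 25.4% occur also in other genes, mainly Ctsb on the opposite strand, which was itself higher (log2 fold change 0.50±0.07). For Tm7sf2 the share was 17.4%, mainly with Vps51 on the same strand, whose own difference was 0.03±0.05. The strand setting of the counting is not given in the sources used here, and the part of the overlaps in these levels was not tested.

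Msmo1, the methylsterol monooxygenase that starts removal of the C4 methyl groups, was the most reduced enzyme of this group. TdTomato+ libraries of mice 2 to 6 gave 26.9, 39.0, 46.6, 33.4 and 30.6 CPM and TdTomato− libraries 44.4, 61.7, 67.7, 48.0 and 48.2 CPM. The ranges overlapped only because mouse 4 in TdTomato+ cells exceeded mouse 2 in TdTomato− cells, and within mice the log2 ratio lay between −0.72 and −0.53 (−0.62±0.05, adjusted p=3.1e-06). Cyp51, the lanosterol 14α-demethylase, was also lower in 5 of 5 mice, at 139±18.5 against 163±19.0 CPM (−0.23±0.04, adjusted p=7.8e-04), a call lost without the pairing (adjusted p=0.0503). Nsdhl, which acts with Msmo1 at the C4 position, differed by −0.25±0.07 (adjusted p=0.011) with overlapping ranges, and was not called without the pairing (adjusted p=0.11) or without mouse 6 (−0.18, adjusted p=0.055). Dhcr7, which makes cholesterol from 7-dehydrocholesterol, was at the threshold (−0.15±0.06, adjusted p=0.043), and was higher in TdTomato+ cells of mouse 4. It was not called under RLE scaling (adjusted p=0.051), with DESeq2 (0.09), without the pairing (0.19) or without mouse 2, 3, 5 or 6 (0.07 to 0.2).

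The other 5 enzymes of this group were not called. Sqle, squalene epoxidase and a rate-controlling step, averaged 137±14.8 CPM against 145±9.84 CPM (−0.09±0.04, adjusted p=0.074, 95% interval −0.18 to 0.00). Lss, which closes the sterol rings, stood at 0.07±0.04, and Sc5d, the lathosterol desaturase, at 0.07±0.04. Hsd17b7, the 3-ketosteroid reductase of this pathway, was at −0.12±0.06 and Ebp, the sterol isomerase, at 0.00±0.12. For Lss and Sc5d the sign turned negative when library totals replaced the scaling. Sqle was called lower with upper-quartile scaling (−0.11, adjusted p=0.04), and Sqle, Hsd17b7 and Sc5d with library totals (−0.26, −0.29 and −0.11).

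**Figure D2:**
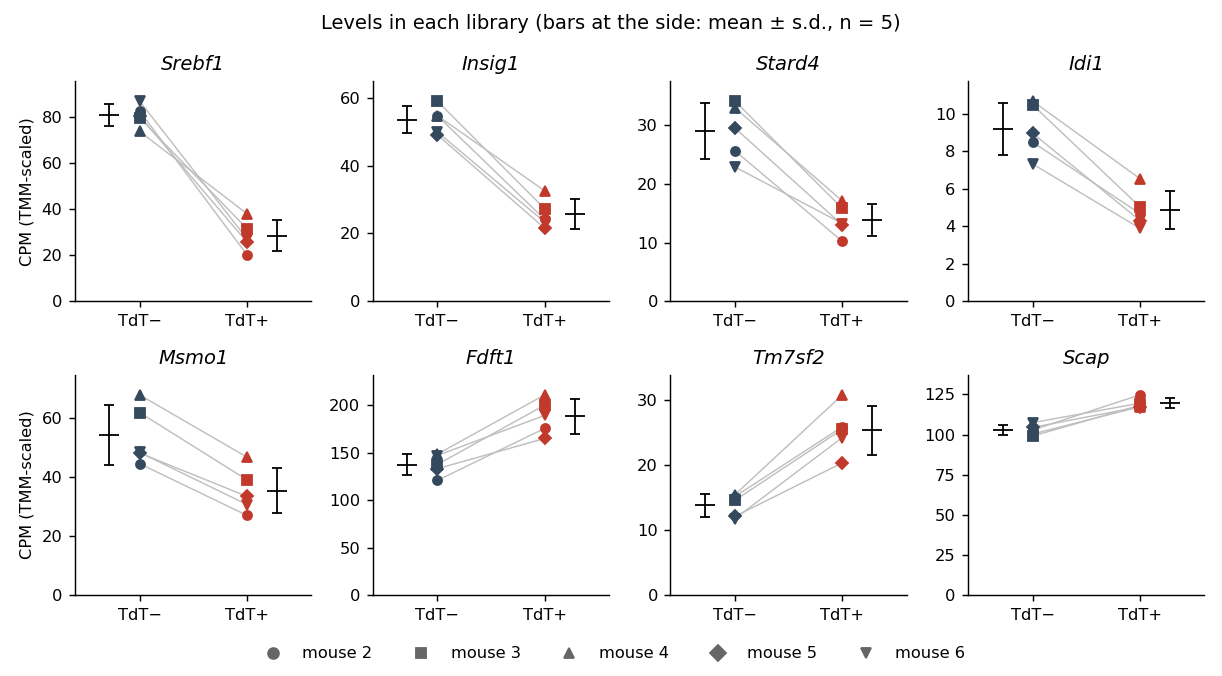
Level in each library (vertical axis, CPM scaled by the trimmed mean of M values, from 0) of 8 genes in TdTomato− (TdT−) and TdTomato+ (TdT+) cells. Lines join the 2 libraries of a mouse, symbols mark the mouse, and bars at the sides give the mean±s.d. (n=5). Srebf1, Insig1, Stard4 and Idi1 fall without overlap and Msmo1 falls in every mouse, while Fdft1, Tm7sf2 and Scap lie higher in TdTomato+ cells of every mouse; the call for Scap was lost under library totals.

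The amount of synthesis mRNA as a whole ranged more widely across mice than between the populations of a mouse. Summed over all 19 enzymes, TdTomato+ cells held 1154, 1371, 1495, 1159 and 1201 CPM in mice 2 to 6 and TdTomato− cells 1187, 1402, 1539, 1254 and 1306 CPM. In each mouse the TdTomato+ sum was the lower of the pair, and in both populations mouse 4 stood highest and mouse 3 next. Mouse 4 was highest for 16 of 19 enzymes in each population, and mice 3 and 4 were the 2 highest for 11 enzymes in TdTomato− cells and 14 in TdTomato+ cells. The 2 libraries of a mouse carry the same mouse number, and the cause of this order of mice was not tested. The mevalonate and isoprenoid enzymes gave the lower TdTomato+ sum in each mouse, 433 to 580 CPM against 485 to 663 CPM. The squalene and sterol enzymes did not separate the populations, at 788±86.5 CPM against 782±67.4 CPM.

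**Figure D3:**
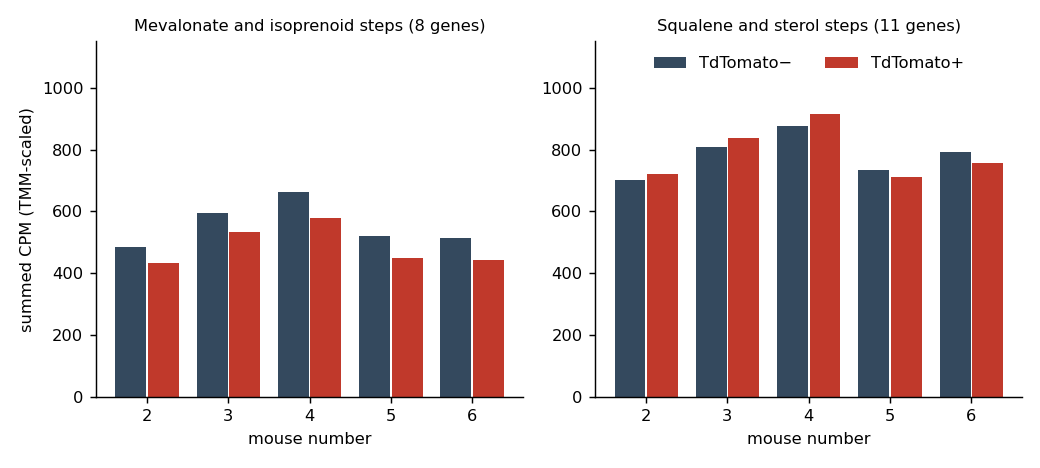
Summed level (vertical axis, CPM scaled by the trimmed mean of M values) of the 8 mevalonate and isoprenoid enzymes (left) and the 11 squalene and sterol enzymes (right), per mouse (horizontal axis), 1 bar per library. The left sums are lower in TdTomato+ cells of all 5 mice, the right sums are higher in TdTomato+ cells of mice 2, 3 and 4 and lower in those of mice 5 and 6, and mouse 4 is highest in all 4 series of bars.

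Of the 5 SREBP control genes, 3 did not overlap between the populations, a share near the 61.6% of all genes. Srebf1 encodes SREBP-1, the form best known for fatty acid synthesis genes. It gave 20.3, 31.6, 38.1, 25.7 and 27.2 CPM in TdTomato+ cells of mice 2 to 6 and 82.8, 79.9, 73.9, 80.6 and 87.1 CPM in TdTomato− cells. Every TdTomato+ library lay below every TdTomato− library, with a 2.87-fold lower level (−1.52±0.13, adjusted p=5.5e-06). The size varied between mice, from −0.96 in mouse 4 to −2.03 in mouse 2.

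Insig1, a retention protein that is itself a target of SREBP, gave 24.2, 27.3, 32.6, 21.6 and 23.4 CPM in TdTomato+ cells of mice 2 to 6. The matching TdTomato− libraries held 54.8, 59.1, 54.8, 49.1 and 50.0 CPM. The level was 2.09-fold lower without overlap (−1.06±0.07, adjusted p=8.9e-07). Its homologue Insig2 did not share this difference, at 17.8±1.76 CPM against 18.1±0.579 CPM (−0.03±0.07, adjusted p=0.73, 95% interval −0.20 to 0.14).

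Srebf2 encodes SREBP-2, the form that drives the cholesterol genes. It was far the higher of the 2 factors per length, 53.1 CPM per kb in TdTomato+ cells and 59.7 in TdTomato− cells, where Srebf1 stood at 5.07 and 14.4 CPM per kb. Its own difference was slight, 382±36.0 CPM against 429±25.6 CPM, with overlapping ranges but the same sign in 5 of 5 mice (−0.17±0.04, adjusted p=0.0051). Scap, the escort protein, went the other way, at 117 to 125 CPM against 99.0 to 107 CPM with no overlap (0.22±0.04, adjusted p=8.3e-04). That call did not hold under library totals (0.04, adjusted p=0.37). Of the 75-base stretches of Scap, 9.05% occur also in 5830462I19Rik, and the part of this overlap was not tested.

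Among the transport genes, the largest differences of the whole set were in sterol efflux. Abca1, the transporter that loads cholesterol onto apolipoproteins, gave 1.81, 1.87, 1.68, 2.39 and 3.21 CPM in TdTomato+ cells of mice 2 to 6. TdTomato− cells gave 63.8, 24.5, 22.4, 54.6 and 52.8 CPM. It was 19.1-fold lower in TdTomato+ cells (−4.26±0.18, adjusted p=4.3e-08). Apoe, the main apolipoprotein of the brain, gave 4.35, 3.64, 4.15, 3.74 and 5.70 CPM in TdTomato+ cells and 45.2, 12.03, 13.5, 38.6 and 43.6 CPM in TdTomato− cells. It was 6.39-fold lower (−2.68±0.26, adjusted p=1.3e-05). In both genes the populations did not overlap, and the TdTomato− libraries of mice 3 and 4 lay well below those of mice 2, 5 and 6.

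In TdTomato− cells, mice 3 and 4 were also the lowest in the summed markers of microglia, pericytes, erythroid cells, GABAergic neurons and the oligodendrocyte lineage. Those of radial glia, cortical neurons, endothelium and meninges did not order the mice this way. All 7 measured microglia markers (9 were listed) were lower in TdTomato+ cells, with summed levels of 0.725 to 1.76 CPM, and 3 of the 7 had at most 3 counts in every TdTomato+ library. In TdTomato− cells of mice 2 to 6 the microglia sum was 69.0, 14.7, 20.1, 51.1 and 59.3 CPM. The ratio of Apoe to Csf1r, the receptor that marks microglia and macrophages, varied little across TdTomato− libraries, from 1.84 to 2.42, and was 5.25 to 13.7 in TdTomato+ libraries, where Csf1r had only 7 to 24 counts, so that these ratios carry a large counting error. Abca1 stood at 2.41 to 4.92 times Csf1r in TdTomato− cells and, on the same few counts, at 2.96 to 5.71 times in TdTomato+ cells. The pericyte sum in TdTomato− cells of mice 2 to 6 was 17.9, 13.0, 11.6, 17.0 and 18.8 CPM (1.02 to 3.04 CPM in TdTomato+ cells). The erythroid sum was 109, 74.2, 103, 250 and 258 CPM (1.18 to 25.7 CPM in TdTomato+ cells). The part of microglia or of other cells in the Abca1 and Apoe differences was not tested.

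**Figure D4:**
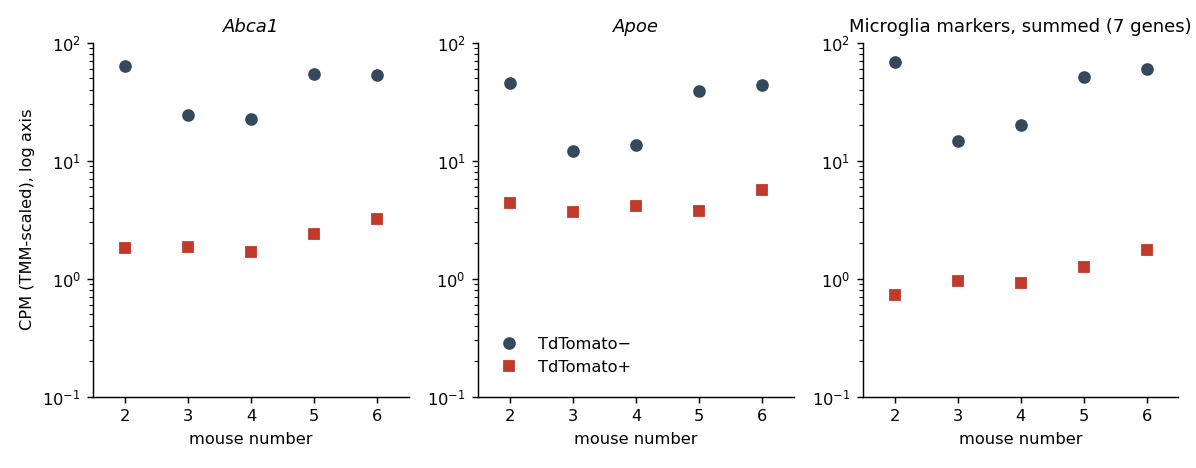
Level per library (vertical log axis, CPM scaled by the trimmed mean of M values) of Abca1, Apoe and the sum of 7 microglia markers, by mouse number (horizontal axis), in TdTomato− (circles) and TdTomato+ (squares) cells. In all 3 panels the TdTomato− points of mice 3 and 4 lie below those of mice 2, 5 and 6, and all TdTomato+ points lie below all TdTomato− points.

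Stard4, a cytosolic sterol carrier induced by SREBP, was reduced about as much as Insig1. It gave 10.2, 15.8, 17.1, 13.0 and 13.2 CPM in TdTomato+ cells of mice 2 to 6 and 25.7, 34.1, 33.0, 29.5 and 22.9 CPM in TdTomato− cells, with no overlap (−1.07±0.08, adjusted p=2.3e-06). Among the TdTomato− libraries, those of mice 3 and 4 were the highest for Stard4 and the lowest for the summed microglia markers, and the part of microglia in its difference was not tested. Nr1h2, the LXRβ receptor, was also lower without overlap, at 44.2±3.70 against 68.1±7.19 CPM (−0.62±0.05, adjusted p=3.8e-06). Abcg1, the LXR target that exports cholesterol to lipoprotein particles, was not called (17.5±1.20 against 17.1±1.86 CPM, 0.04±0.07, adjusted p=0.67).

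The lysosomal pair that releases cholesterol from endocytosed lipoprotein split. Npc2, the soluble carrier, was lower without overlap at 82.2±5.12 against 106±7.23 CPM (−0.36±0.06, adjusted p=3.5e-04). Npc1, the membrane partner, was higher in 5 of 5 mice at 66.2±4.29 against 55.0±4.67 CPM (0.27±0.06, adjusted p=0.0034), a call lost without mice 3 and 4 (0.16, adjusted p=0.051) and under library totals (0.09, adjusted p=0.22). Of its 75-base stretches 7.53% occur in other genes, mainly Rmc1 on the opposite strand, which was itself higher (0.88±0.07), and the part of this overlap was not tested. Soat1, which esterifies cholesterol for storage, was higher without overlap at 37.0 to 43.3 against 32.7 to 34.7 CPM (0.24±0.05, adjusted p=0.0023), and lost the call under library totals (0.07, adjusted p=0.29).

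The rest of the pathway was read from lists of neighbouring functions, whose counts stand beside the 37.9% of all genes called higher and the 39.4% called lower. Of 7 other genes of sterol synthesis, 2 were higher and 5 lower (median −0.20). Por, the reductase that feeds electrons to Cyp51 and Sqle, fell by 0.64 on the log2 scale (adjusted p=1.9e-06), and Cyb5b, a cytochrome b5, by 0.54 (adjusted p=1.1e-06). Acat1, the mitochondrial thiolase, went the other way from Acat2 (0.62, adjusted p=9.8e-06). Of 14 other isoprenoid enzymes, 4 were higher and 5 lower (median −0.07). They included Zmpste24, a protease for prenylated proteins (−0.58, adjusted p=4.4e-05), Pggt1b, a geranylgeranyl transferase subunit (−0.50, adjusted p=3.9e-04), and Rabggta, a subunit of the Rab prenyl transferase (0.49, adjusted p=1.4e-05).

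SREBP processing and sterol-regulated degradation had 5 higher and 5 lower of 14 genes (median 0.03). Mbtps1, the site-1 protease that makes the first cut in SREBP, was lower (111±5.13 against 177±11.9 CPM, −0.68, adjusted p=8.0e-07). The ubiquitin ligase gene March6 was higher (0.31, adjusted p=4.1e-04), and Vcp, which extracts proteins for degradation (−0.31, adjusted p=9.9e-05), and the ligase gene Rnf139 (−0.24, adjusted p=0.0029) were lower. Of 14 genes listed under SREBP-1 and fatty acid synthesis, 9 were lower and 3 higher (median −0.28). Acly, which supplies cytosolic acetyl-CoA, fell by 0.53 on the log2 scale (adjusted p=8.0e-06). Mlxipl, a glucose-responsive factor (−3.44, adjusted p=2.4e-06), and Acacb, a carboxylase (−0.87, adjusted p=0.0068), were lower, with means below 3 CPM in both populations. Me1, the malic enzyme that yields NADPH, went against the list at 37.3±4.50 against 7.58±0.417 CPM (2.29, adjusted p=1.8e-08).

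Lipoprotein receptors had 3 higher and 4 lower of 10 (median −0.07). Vldlr, a reelin and lipoprotein receptor of migrating neurons, stood at 159±13.0 against 51.0±2.02 CPM (1.63, adjusted p=1.1e-08). Lrp2 (−2.53, adjusted p=9.3e-06) and Sorl1 (−0.84, adjusted p=1.1e-05) were lower. Of 20 genes of intracellular sterol transfer, 13 were higher and 6 lower (median 0.28). The oxysterol-binding protein relatives Osbpl6 (98.0±15.5 against 31.4±4.42 CPM, 1.64, adjusted p=4.3e-06), Osbpl10 (1.64, adjusted p=7.1e-07) and Osbpl3 (1.36, adjusted p=4.3e-06) were higher, as was Gramd1b, which carries plasma membrane cholesterol inward (0.90, adjusted p=3.1e-07). Of 13 LXR receptors, targets and efflux genes, 5 were higher and 4 lower (median −0.08). The LXR partner Rxra was lower (9.67±0.951 against 35.4±2.15 CPM, −1.87, adjusted p=7.1e-09), as were Rxrg (−3.82, adjusted p=2.9e-08) and the phospholipid transfer protein Pltp (−2.94, adjusted p=2.3e-06), while Abcg4, an efflux transporter of neurons, was higher (1.22, adjusted p=1.1e-07). Of 5 oxysterol enzymes, 2 were higher and 1 lower, the last being Cyp39a1, an oxysterol hydroxylase (0.468±0.110 against 14.5±0.846 CPM, −4.94, adjusted p=5.5e-09).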

How the data were processed

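Bulk mRNA-seq was made from TdTomato+ and TdTomato− cells of 5 mice (10 libraries). The authors mapped trimmed reads to GRCm38 with STAR 2.4.2a, kept uniquely mapped reads, and deposited raw gene counts in 1 table of 14300 genes, of which 14271 IDs matched a symbol in the GENCODE M21 annotation. Every gene of the table reached at least 0.501 CPM in 5 libraries or more. The GEO labels and the study's methods differ on the library kit, RNA input and read length, and the strand setting of the counting is not given in the sources used here.

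Here the counts were scaled by TMM and tested with edgeR 4.0.16 (R 4.3.3; filterByExpr, glmQLFit, glmQLFTest, prior count 0.125) over all 14300 genes, with the mouse as a block and Benjamini-Hochberg adjustment. The standard error is the absolute log2 fold change divided by the square root of F, and 95% intervals use the t quantile at the test's total degrees of freedom. Same-numbered libraries came from the same mouse, and their deviations from the group means correlated at 0.186 to 0.316 (other pairs, −0.312 to 0.212). The code was tested on simulated data. Gene exon lengths and shared 75-base stretches came from the GENCODE transcripts, and promoters from RefSeq (GRCm38.p6). P-values set the difference between the populations against the variation left in these samples once the mouse is taken into account.

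The members and lists were chosen with earlier results of these data known. Genes outside the 32 were named where they had up to the 4 largest absolute log2 fold changes of their list at an adjusted p of 0.05 or less and a mean of at least 1 CPM. A few genes covered by that rule are not reported here by name. Alternatives were RLE and upper-quartile scaling, DESeq2 1.42.0, other count filters and robust estimation. Further ones were a prior count of 2, TREAT in edgeR, no mouse block, and each mouse left out. Library totals and mice 3 and 4 left out together were added after seeing the data, the latter because their TdTomato− libraries held fewer counts of microglia markers.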

Additional observations from a re-analysis of the deposited data

Results flagged for a closer look

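In 64 groups of 5 libraries (each gene in each population), 1 had a library far from the others, where chance would give about 3.2. Lss, which closes the sterol rings, stood at 76.2 CPM in TdTomato− cells of mouse 5 and between 85.6 and 88.1 CPM in those of the other 4 mice. On the log2 CPM scale the gap took up 0.799 of the group's range, above the critical value of 0.71. Lss was not called with or without that mouse.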

How the results depend on the processing

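Of 480 fold changes of the 32 genes under the alternatives, 444 kept their direction and their side of the threshold, 17 lost the call, 6 gained one and 13 changed sign. The sign changes concerned values near 0 that were not called: Ebp (0.00 under RLE scaling, DESeq2, no mouse block and without mouse 4, and 0.11 without mouse 2), Ggps1 (0.02) and Insig2 (0.02) without mouse 2, Mvd (0.01) and Insig2 (0.02) without mouse 6, and, with library totals, Pmvk (−0.07), Lss (−0.11), Sc5d (−0.11, then called at an adjusted p of 0.039) and Abcg1 (−0.14). With 1 mouse left out, Ebp ranged from −0.04 to 0.11, Ggps1 from −0.03 to 0.02, Mvd from −0.09 to 0.01 and Insig2 from −0.06 to 0.02. Library totals lowered the median of all genes to −0.18, with 36.6% of calls higher in place of 49.1%. They left 2 of the 32 genes higher (Fdft1 and Tm7sf2) and 23 lower, the added calls being Sc5d (above), Mvd (−0.23, adjusted p=0.011), Ggps1 (−0.19, adjusted p=0.0068), Sqle (−0.26, adjusted p=2.8e-04), Hsd17b7 (−0.29, adjusted p=0.0016) and Insig2 (−0.21, adjusted p=0.033), and gave medians of −0.47 for the mevalonate and isoprenoid enzymes, −0.26 for the squalene and sterol enzymes, −0.35 for SREBP control and −0.67 for transport, efflux and storage. Sqle was also called with upper-quartile scaling (−0.11, adjusted p=0.04). Without the mouse block, 18 of the 22 calls were kept; Hmgcs1 (adjusted p=0.27), Cyp51 (−0.23, adjusted p=0.0503), Nsdhl (−0.24, adjusted p=0.11) and Dhcr7 (adjusted p=0.19) were lost. Dhcr7 was also lost under RLE scaling, DESeq2 and without mouse 2, 3, 5 or 6 (−0.17 to −0.10). The cause of these changes was not tested. Fdps (39 to 105 counts per library) and Abca1 in TdTomato+ cells (38 to 71) had the fewest counts.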
